A study of Mus musculus with 8 samples.

Results

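A set of 42 genes of cell cycle entry, DNA replication and mitosis was measured in follicular B cells of mice. The members were chosen by gene symbol: each listed gene was looked up among 12422 probe sets that are not controls, and the brightest probe set stood for the gene. For 39 of the 42 genes a probe set with 1 gene symbol was found. The other members were Ccnb1 and Bub1b, for which no probe set of that symbol was found, and Tyms, whose probe sets each carried several symbols and were not used. Of the 39 genes, 35 were bright enough to be tested, among 7453 probe sets tested in all (5603 genes, of 8251 on the array with a symbol of their own). The brightness limit was a mean over all 8 arrays and did not look at the groups. Ccne2, Mcm6, Bub1 and Kif11 were too dim, with signals from 1.2 to 37.3 on any array.

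The study asked how the tail of the antigen receptor changes the genes that antigen induces. The B cells carried a receptor for hen egg lysozyme (HEL), either IgM or IgMG, a chimera with the spacer, the membrane-spanning segment and the cytoplasmic tail of IgG1 in place of the IgM ones. RNA of unstimulated and HEL-stimulated cells of each receptor type was hybridised to single-colour arrays, which gave 4 groups of 2 arrays: IgM unstimulated, IgM HEL, IgMG unstimulated and IgMG HEL. The strain and age of the mice, the way the receptor genes were introduced and the length and dose of the stimulation are not given in the sources used. Each array pooled sorted cells of 2 to 8 mice. IgM unstimulated 1 and IgM HEL 2 each held 2 mice from 1 sort. IgM HEL 1 and IgM unstimulated 2 each held 4 mice from 2 sorts, and the IgMG arrays came from 2 or 3 sorts. The IgM arrays held 2 or 4 mice and the IgMG arrays 5 to 8, so receptor type and number of mice pooled cannot be told apart. The sources do not say whether arrays shared mice, so the p-values measure only the spread between these arrays.

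A resting B cell sits outside the cell cycle. To enter it, D-type cyclins with Cdk4 and cyclin E with Cdk2 inactivate the retinoblastoma family, which frees E2F factors to switch on genes of DNA replication. The MCM proteins license replication origins, Pcna clamps the polymerases to DNA, and later the mitotic cyclins, Cdk1 and the Aurora and Polo kinases drive chromosome condensation and segregation. In mature B cells, cyclin D2 and cyclin D3 are the D-type cyclins best known for this role, and strong antigen receptor signalling can start the program.

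Antigen raised Pcna, the sliding clamp of replication, with either receptor, by 0.97 ± 0.18 on the log2 scale in IgM and 1.25 ± 0.18 in IgMG cells. In IgM cells Cdk4 rose as well, and Smc4, Mad2l1, Aurkb, Tk1, Ccne1 and Ccnd3 fell, while the MCM genes stayed short of the threshold. In IgM cells 8 of the 35 members passed (22.9%), 2 higher and 6 lower, beside 14.0% of all probe sets tested. Of all probe sets, 6.70% were called higher and 7.27% lower, and 17.1% of the members were called lower. In IgMG cells 2 members passed (5.71%), Pcna higher and Ccne1 lower, beside 5.39% of all probe sets (3.10% higher and 2.29% lower), so that this count is near the background. The mean response over both receptors called 2 members higher and 6 lower (22.9%), beside 20.2% of all probe sets (9.18% higher and 11.0% lower). An unadjusted p under 0.05 was found for 13 members in IgM cells, 7 in IgMG cells and 10 in the mean response, beside 28.6%, 22.3% and 33.5% of all probe sets. Calls are adjusted p-values under 0.05 from limma with Benjamini-Hochberg adjustment over all 7453 probe sets, and changes are differences of log2(signal + 16) with the standard error (SE) of the fit. With 2 arrays in each group, the smallest p that exact permutation allows is 0.333.

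The members' median log2 change with HEL was -0.38 in IgM cells and -0.10 in IgMG cells, beside -0.02 and -0.05 over all probe sets tested. The IgM median was -0.22 without IgM unstimulated 1, -0.68 without IgM HEL 1 and -0.62 without IgM unstimulated 2. The IgMG median was -0.42 without IgMG unstimulated 1 and 0.13 without IgMG unstimulated 2. The HEL arrays lay below both unstimulated arrays in 15 of 35 members in IgM cells and above them in 7, beside 30.6% and 27.6% of all probe sets. In IgMG cells they lay below in 7 and above in 7, beside 29.4% and 23.7%. The array counts limit what can be called: without 1 of the 4 IgM arrays, the members called in IgM cells numbered 2 (without IgM unstimulated 1), 5 (without IgM HEL 1), 5 (without IgM unstimulated 2) or 3 (without IgM HEL 2). Without IgMG HEL 2, the members called in IgMG cells numbered 0. Since these are bulk RNA pools, fewer cells of a type and less RNA per cell cannot be told apart.

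**Figure D1:**
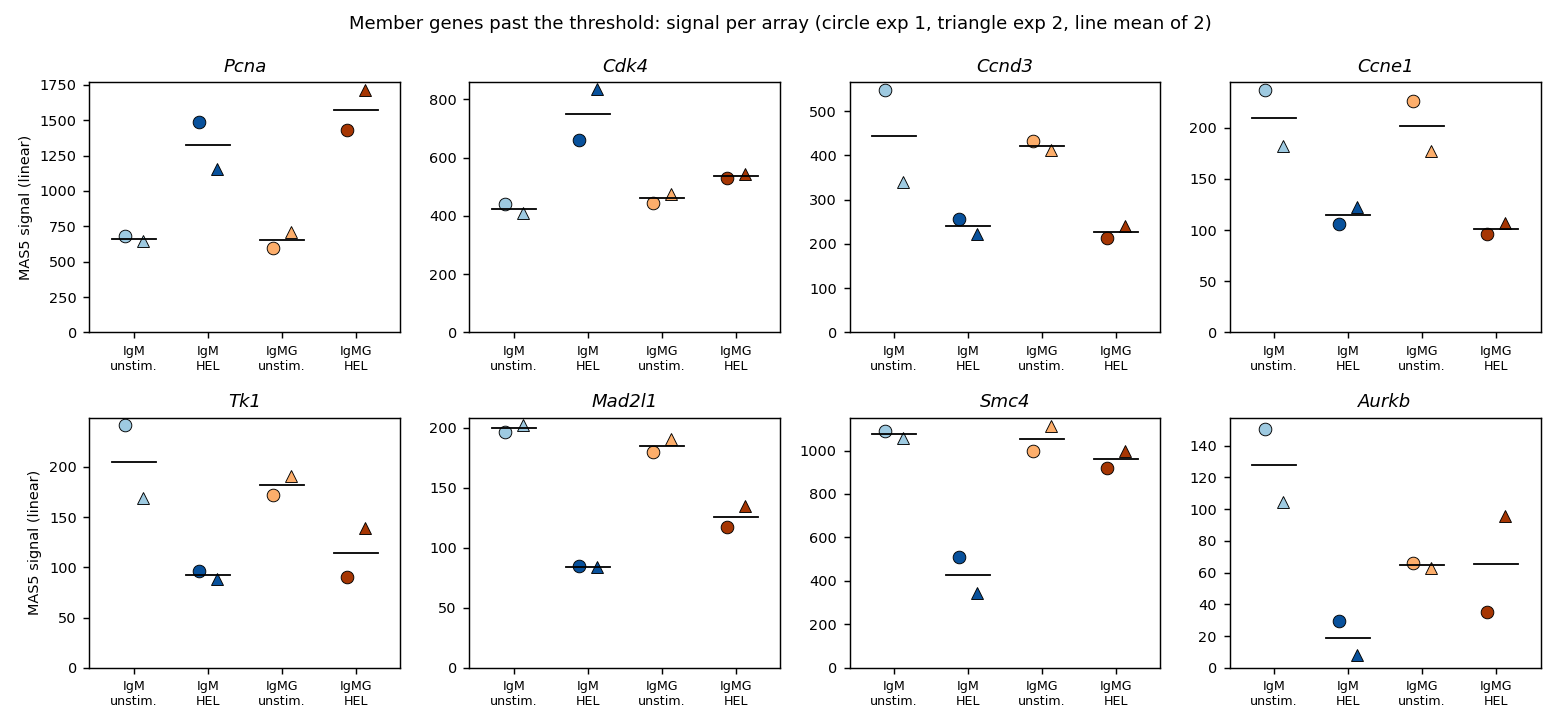
Linear MAS5 signal of the 8 members past the threshold, on each of the 8 arrays in the 4 groups. Circles are experiment 1, triangles experiment 2 and bars the mean of 2 arrays. Pcna on the 4 HEL arrays sits between 1153.7 and 1711.8, above the 4 unstimulated arrays, and Smc4 is low only on the IgM HEL arrays.

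Among the genes of G1 entry, Cdk4 rose in IgM cells and the cyclins Ccnd3 and Ccne1 fell. Cdk4, the kinase partner of the D-type cyclins, had signals of 441.2 and 408.8 on the unstimulated IgM arrays and 659.2 and 836.8 on the IgM HEL arrays. On the IgMG arrays it had 445.4 and 475.8 unstimulated and 531.5 and 542.3 with HEL. The HEL arrays were thus higher with either receptor, without overlap, and by more in IgM cells. The log2 change was 0.78 ± 0.17 (SE, n = 2 against 2) in IgM cells, with an adjusted p = 0.0163 from limma, and 0.21 ± 0.17 in IgMG cells, with an adjusted p = 0.506. The difference of the responses, IgMG minus IgM, was -0.57 ± 0.23, with an adjusted p = 0.474. The second Cdk4 probe set did not pass, with 0.34 ± 0.28 for IgM and -0.32 ± 0.28 for IgMG cells, the latter of opposite sign. Without IgM unstimulated 1, IgM unstimulated 2 or IgM HEL 2 the IgM response of Cdk4 lost its call, with changes of 0.84, 0.73 and 0.62.

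Ccnd3, a D-type cyclin, had signals of 548.6 and 338.9 in unstimulated and 257.3 and 222.2 in HEL-stimulated IgM cells. In IgMG cells it had 433.5 and 411.3 unstimulated and 214.2 and 240.5 with HEL. All 4 HEL arrays lay below all 4 unstimulated arrays. The log2 change was -0.81 ± 0.23 (SE) in IgM cells (adjusted p = 0.0465, limma) and -0.85 ± 0.23 in IgMG cells (adjusted p = 0.0667), and the mean over both was -0.83 ± 0.16 (adjusted p = 0.00766). Ccne1, the cyclin that activates Cdk2 at the start of DNA synthesis, moved much like it. Its signals were 237.3 and 182.1 in unstimulated and 106.3 and 122.9 in stimulated IgM cells, and 226.6 and 176.9 against 96 and 106.8 in IgMG cells. The log2 change of Ccne1 was -0.78 ± 0.21 in IgM cells (adjusted p = 0.0392, limma) and -0.88 ± 0.21 in IgMG cells (adjusted p = 0.0461), with a mean of -0.83 ± 0.15 (adjusted p = 0.00523). The 95% interval of the difference between the receptors ran from -0.77 to 0.69 for Ccnd3 and from -0.77 to 0.57 for Ccne1, both unadjusted. The calls within 1 receptor sat close to the threshold: without 1 array, the adjusted p in IgM cells reached 0.259 for Ccnd3 and 0.229 for Ccne1, both without IgM unstimulated 1, and that of Ccne1 in IgMG cells reached 0.204. Of 20 alternative settings, 12 ended the IgM call of Ccnd3 and 14 ended that of Ccne1 in each receptor type, among them centring on the median, no filter on dim probe sets, no variance trend and the Gapdh covariate. The mean responses of both cyclins kept their calls without any single array, with adjusted p up to 0.0386 for Ccnd3 and 0.0278 for Ccne1.

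Ccnd2, the other D-type cyclin of B cells, had signals of 235.4 and 112.6 in unstimulated IgM cells and 134 and 56.5 with HEL. In IgMG cells its signals were 47.7 and 44.7 unstimulated and 52.4 and 79.3 with HEL. The unstimulated IgMG arrays lay below both unstimulated IgM arrays, with a log2 difference of -1.53 ± 0.40 (SE), the only member with an unadjusted p under 0.05 in that comparison, where 4.62% of all probe sets had one. After adjustment p was 0.965 (limma), and no probe set of the array passed. The HEL response of Ccnd2 was -0.79 ± 0.40 in IgM cells (adjusted p = 0.237) and 0.38 ± 0.40 in IgMG cells (adjusted p = 0.647), opposite in sign but short of the threshold. Cdkn1a, the p21 inhibitor of cyclin-dependent kinases, had signals from 37.9 to 100.9 with overlapping groups. Its log2 changes were -0.23 ± 0.40 in IgM and -0.31 ± 0.40 in IgMG cells. With 1 array left out these ran from -0.68 to 0.22 and from -0.67 to 0.05. A second Cdkn1a probe set had 0.32 ± 0.40 in IgM and -0.11 ± 0.40 in IgMG cells, the former of opposite sign. Cdk2 and the transcription factor E2f1 did not pass in either receptor type. Their changes were 0.22 and -0.62 in IgM cells and 0.45 and -0.18 in IgMG cells. A second Cdk2 probe set had 0.07 ± 0.35 in IgM and -0.40 ± 0.35 in IgMG cells, the latter of opposite sign. The E2f1 probe set is of a design that can detect several transcripts.

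Replication licensing stayed short of the threshold. In IgM cells 5 of the 6 tested genes (Mcm2, Mcm3, Mcm4, Mcm5 and Mcm7, subunits of the replicative helicase) had positive log2 changes, from 0.12 to 0.42, and Cdc6, which loads the helicase onto origins, had -0.67 ± 0.33. In IgMG cells 2 of 6 were positive. The licensing genes had median log2 changes with HEL of 0.23 (IgM) and -0.06 (IgMG). In either, 0 of 6 passed, beside 14.0% (IgM) and 5.39% (IgMG) of all probe sets. In each, 1 of 6 had an unadjusted p under 0.05, beside 28.6% and 22.3% of all probe sets. Mcm7, chosen here after its values were seen, had 223.5 and 167.4 unstimulated and 172.1 and 300.8 with HEL in IgM cells, which overlapped, and 221.1 and 274.8 against 129.4 and 153.2 in IgMG cells, which did not. Its responses were 0.22 ± 0.27 and -0.74 ± 0.27, and their difference was -0.96 ± 0.38 (adjusted p = 0.465, limma). Mcm6, too dim to be tested, had signals between 2.8 and 20.3.

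The genes of DNA synthesis divided. Pcna had signals of 677.8 and 644.8 in unstimulated and 1489.9 and 1153.7 in stimulated IgM cells. In IgMG cells it had 597.8 and 706.2 unstimulated and 1430.6 and 1711.8 with HEL. All 4 HEL arrays lay above all 4 unstimulated arrays. The log2 change was 0.97 ± 0.18 (SE) in IgM cells (adjusted p = 0.00927, limma) and 1.25 ± 0.18 in IgMG cells (adjusted p = 0.00673), with a mean of 1.11 ± 0.13 (adjusted p = 5.81e-04). The difference between the receptors was 0.28 ± 0.25, with an unadjusted 95% interval from -0.30 to 0.85. Without IgM unstimulated 1 or 2 the adjusted p in IgM cells was 0.0541 or 0.0579, and without IgMG HEL 2 that in IgMG cells was 0.103, while the mean response passed without any single array.

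Tk1, the thymidine kinase of nucleotide salvage, moved the other way. Its signals fell from 241.2 and 169 to 96.2 and 88.7 in IgM cells, a log2 change of -1.01 ± 0.24 (SE, adjusted p = 0.0271, limma). In IgMG cells they were 172 and 191.3 unstimulated and 90.2 and 139.2 with HEL, a change of -0.62 ± 0.24 (adjusted p = 0.173). The groups did not overlap with either receptor, and the mean response was -0.81 ± 0.17 (adjusted p = 0.0113). The IgM call was lost without IgM unstimulated 1, IgM HEL 1 or IgM HEL 2, with changes of -0.77, -1.06 and -0.96. It was also lost with the Gapdh covariate and with the probe sets of a gene averaged. Rrm2, the regulated subunit of ribonucleotide reductase, had 159.5 and 87.9 against 75.3 and 38.2 in IgM cells, and 50.2 and 127.4 against 82.6 and 89.2 in IgMG cells. Its log2 changes were -0.94 ± 0.41 (adjusted p = 0.171, limma) and 0.06 ± 0.41 (adjusted p = 0.954), and the IgMG groups overlapped, with changes from -0.49 to 0.62 when 1 array was left out. Pola1, Prim1, Lig1 and Rrm1, which make primers, copy DNA, join fragments and supply deoxynucleotides, did not pass, with changes from -0.13 to 0.03 in IgM and from -0.35 to -0.03 in IgMG cells.

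Both genes that rose have a promoter window in the RefSeq table of build GRCm38.p6, which held 36 of the 42 members. The 250 bases before each gene's start were searched on both strands for E2F sites (TTTCCCGC, TTTGGCGC, TTTCGCGC or TTTGCCGC), the cell cycle genes homology region or CHR (TTTGAA), the CCAAT box (CCAAT) and the E-box (CACGTG), the core sequence that Myc with Max is known to bind. The windows of Cdk4 (chr10:127063285-127063534, plus strand) and Pcna (chr2:132253181-132253430, minus strand) are shown because these members rose. They run 5′ to 3′ on the gene's strand, with E-boxes of Cdk4 and the CCAAT box of Pcna, read here on the opposite strand, in capitals.
Cdk4: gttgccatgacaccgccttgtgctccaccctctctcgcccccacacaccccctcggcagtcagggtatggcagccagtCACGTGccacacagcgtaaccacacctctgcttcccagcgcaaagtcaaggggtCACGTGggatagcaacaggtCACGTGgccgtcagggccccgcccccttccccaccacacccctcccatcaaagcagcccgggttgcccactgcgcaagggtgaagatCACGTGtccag
Pcna: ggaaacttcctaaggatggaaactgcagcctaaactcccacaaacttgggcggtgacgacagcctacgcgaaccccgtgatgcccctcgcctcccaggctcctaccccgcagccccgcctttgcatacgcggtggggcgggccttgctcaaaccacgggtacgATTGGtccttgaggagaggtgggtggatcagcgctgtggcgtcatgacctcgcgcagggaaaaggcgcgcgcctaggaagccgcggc
Cdk4 had 4 E-boxes, and 5 genes of the 27025 in the table (0.0185%) had 4 or more in a window. E-boxes were present for 2 of the 36 members (5.56%), Cdk4 and Tyms, beside 6.86% of all genes. Pcna had 1 CCAAT box and no match to the other motifs in this window. The matches are a description of these letters and show no binding.

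Of the mitotic cyclins and kinases, Aurkb fell with HEL in IgM cells and the other 6 tested genes did not pass. This is 14.3% of 7 genes, near the 14.0% of all probe sets. All 7 tested genes had negative log2 changes in IgM cells, with a median of -0.71, and 5 of 7 in IgMG cells, with a median of -0.12. Aurkb, the kinase of the chromosomal passenger complex, had 150.4 and 104.6 in unstimulated and 29.2 and 8.1 in stimulated IgM cells. In IgMG cells it had 66.2 and 63.1 unstimulated and 35 and 95.4 with HEL. Its groups were apart in IgM cells and overlapped in IgMG cells. The log2 change was -2.10 ± 0.42 (SE, adjusted p = 0.0117, limma) in IgM cells and -0.10 ± 0.42 (adjusted p = 0.926) in IgMG cells. The difference was 2.00 ± 0.59, with an unadjusted 95% interval from 0.67 to 3.34 and an adjusted p = 0.414. The IgM call was lost without IgM unstimulated 1 (-1.87) or IgM HEL 2 (-1.65), and also with the Gapdh covariate. The signals near 8 are dim enough for the offset to bear on the size of the change.

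Cdk1, the kinase that drives mitosis, had 92.9 and 66.1 unstimulated and 41.6 and 22.5 with HEL in IgM cells, and 31.5 and 144.2 against 50.8 and 67.3 in IgMG cells. The IgM groups did not overlap, but the change of -1.01 ± 0.50 (SE) did not pass (adjusted p = 0.223, limma), and in IgMG cells it was -0.23 ± 0.50 (adjusted p = 0.844). The IgMG value was -1.10 without IgMG unstimulated 1 and 0.65 without IgMG unstimulated 2. Ccna2, the cyclin of DNA synthesis and early mitosis, had 251.8 and 185.1 against 197.2 and 132.4 in IgM cells and 164.5 and 252.3 against 137.8 and 158.8 in IgMG cells. Its changes were -0.38 ± 0.27 and -0.42 ± 0.27, alike in sign and short of the threshold. Ccnb2, a cyclin partner of Cdk1 chosen here after its values were seen, spanned the widest range of the mitotic cyclins, with 507.6 and 254 against 233.3 and 104.1 in IgM cells and 138.8 and 509 against 212.3 and 242.4 in IgMG cells. Plk1, Ccnf and Aurka did not pass either, with IgM changes of -0.71, -0.32 and -0.01. The Plk1 probe set can detect several transcripts, and another Plk1 probe set had 0.01 ± 0.26 in IgM cells.

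Chromosome structure and segregation held both genes whose fall in IgM cells passed in every alternative setting tried. All 8 tested genes had negative changes in IgM cells, with a median of -0.74. Smc4 and Mad2l1 passed (25% of the 8, beside 14.0% of all probe sets). In IgMG cells 6 of 8 were negative, with a median of -0.05, and 0 of 8 passed in limma, beside 5.39% of all probe sets. With 8 genes, 0 is near that share. An unadjusted p under 0.05 was found for 1 of 8, beside 22.3% of all probe sets. Smc4, a core subunit of condensin, had 1089.9 and 1058.1 in unstimulated and 511.3 and 342 in stimulated IgM cells, a log2 change of -1.33 ± 0.19 (SE, adjusted p = 0.00338, limma). In IgMG cells it had 997.6 and 1112.4 unstimulated and 919.2 and 999.3 with HEL, a change of -0.13 ± 0.19 (adjusted p = 0.749). Only the IgM HEL arrays stood apart from the other 6. The difference of the responses was 1.19 ± 0.28, with an unadjusted 95% interval from 0.57 to 1.82, and its adjusted p was 0.414. With HEL, IgMG arrays were higher than IgM arrays by 1.17 ± 0.19 (adjusted p = 0.129), a comparison that shares its arrays with the responses.

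Mad2l1, a protein of the spindle checkpoint, had 196.7 and 202.3 against 84.5 and 84.1 in IgM cells, a log2 change of -1.10 ± 0.17 (SE, adjusted p = 0.00454, limma). In IgMG cells it had 179.5 and 190.2 against 117 and 134.9, a change of -0.50 ± 0.17 (adjusted p = 0.130). The groups did not overlap with either receptor, and the difference was 0.60 ± 0.25 (adjusted p = 0.470). Without any single array the IgM responses of Smc4 and Mad2l1 still passed, with changes from -1.61 to -1.05 and from -1.12 to -1.08.

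Top2a, the topoisomerase that untangles chromosomes, had 67.3 and 24.3 against 7.9 and 6.7 in IgM cells, and 12.4 and 54.3 against 35.8 and 34.2 in IgMG cells. Its changes were -1.31 ± 0.48 (SE, adjusted p = 0.106, limma) and 0.19 ± 0.48 (adjusted p = 0.866), the latter running from -0.46 to 0.84 with 1 array left out. Mki67, the Ki-67 proliferation antigen, had 200.4 and 91.2 against 106 and 53.9 in IgM cells, and 46.6 and 252.1 against 91.7 and 128.9 in IgMG cells. The groups of Mki67 overlapped with either receptor, and its changes were -0.72 ± 0.62 and -0.05 ± 0.62. In IgMG cells the change of Mki67 was -1.10 without IgMG unstimulated 1 and 1.00 without IgMG unstimulated 2. In IgM cells it ran from -1.23 to -0.22 with 1 array left out. A second, dimmer Mki67 probe set had 0.11 ± 0.28 in IgM and 0.23 ± 0.28 in IgMG cells, both of opposite sign. The remaining tested genes of this group, Smc2 of condensin, Cdc20 of the anaphase-promoting complex, Birc5 of the passenger complex and the centromeric histone Cenpa, had changes from -0.76 to -0.10 in IgM cells and from -0.16 to 0.09 in IgMG cells, and none passed.

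**Figure D2:**
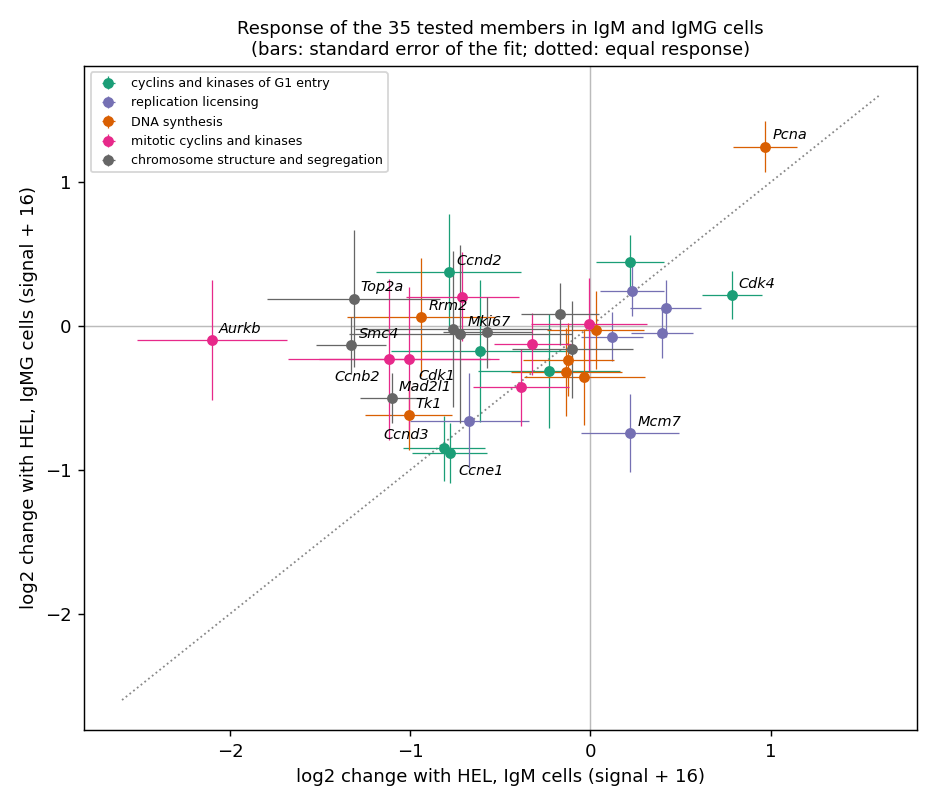
Log2 change with HEL in IgM cells (horizontal) and in IgMG cells (vertical) for the 35 tested members, coloured by role, with bars of 1 standard error; the dotted line marks equal responses. Pcna lies at 0.97 and 1.25, and Aurkb, Smc4 and Top2a lie far to the left with values near 0 on the vertical axis.

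The difference between the receptors was tested for every member, and 0 of 35 passed, as did 0% of all probe sets (limma). An unadjusted p under 0.05 was found for 5 members, Smc4, Aurkb, Mad2l1, Cdk4 and Mcm7, and for 10.1% of all probe sets. The responses of Smc4, Aurkb and Mad2l1 were less negative in IgMG cells, and those of Cdk4 and Mcm7 were lower there. Between unstimulated IgMG and IgM cells 0 of 35 members passed, as did 0% of all probe sets. Between stimulated IgMG and IgM cells 0 of 35 passed, beside 0.0134% of all probe sets, and 6 members and 13.9% of all probe sets had an unadjusted p under 0.05. With HEL, both IgMG arrays lay above both IgM arrays for 10 members and below for 5, beside 23.8% and 24.5% of all probe sets. Unstimulated, they lay above for 3 and below for 6, beside 16.5% and 15.1%.

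Some promoters of the mitotic and chromosome genes held a pair of motifs. CHR and CCAAT matches occurred together for 3 of the 6 mitotic and 5 of the 10 chromosome genes with a window. Cdk1 (chr10:69352913-69353162), Top2a (chr11:99024190-99024439) and Mki67 (chr7:135716380-135716629), all on the minus strand, are shown because they hold CHR and CCAAT matches together; the windows run 5′ to 3′ on the gene's strand, with every match on either strand in capitals.
Cdk1: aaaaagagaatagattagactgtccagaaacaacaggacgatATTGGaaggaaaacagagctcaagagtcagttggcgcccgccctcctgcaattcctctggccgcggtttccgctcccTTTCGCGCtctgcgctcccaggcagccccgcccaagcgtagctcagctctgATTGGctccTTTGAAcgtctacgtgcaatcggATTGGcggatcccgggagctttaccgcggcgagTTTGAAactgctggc
Top2a: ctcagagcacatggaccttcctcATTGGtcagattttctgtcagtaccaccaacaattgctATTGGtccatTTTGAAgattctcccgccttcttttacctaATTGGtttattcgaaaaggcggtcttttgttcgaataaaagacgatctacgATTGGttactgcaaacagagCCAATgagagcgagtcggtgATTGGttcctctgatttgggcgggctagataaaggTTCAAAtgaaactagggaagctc
Mki67: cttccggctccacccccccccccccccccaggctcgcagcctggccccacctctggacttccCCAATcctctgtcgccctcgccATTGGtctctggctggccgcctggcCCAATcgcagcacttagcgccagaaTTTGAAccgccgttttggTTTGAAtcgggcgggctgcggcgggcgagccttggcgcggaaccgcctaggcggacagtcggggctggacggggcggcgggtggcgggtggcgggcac
Cdk1 had 2 CHR, 3 CCAAT and 1 E2F match, Top2a 2 CHR and 6 CCAAT, and Mki67 2 CHR and 3 CCAAT. The CHR and CCAAT motifs occurred together in 1 window for 9 members (25% of the 36 with a window) and for 6.45% of all genes: Ccnb2, Ccnf, Cdc20, Cdk1, Kif11, Mcm2, Mki67, Smc2 and Top2a. CCAAT was found for 26 of 36 members (72.2%) and 37.5% of all genes, and CHR for 9 (25%) and 18.3%. E2F sites were found for 7 members (19.4%), 4 of them among the 6 licensing genes with a window, and for 2.16% of all genes. No match of one motif overlapped a match of another in the members' windows. Mad2l1, which fell in IgM cells, had no match to any of the motifs in this window, and Smc4, Aurkb, Ccnd2, Ccna2, Mcm4 and Ccne2 have no window in the table.

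**Figure D3:**
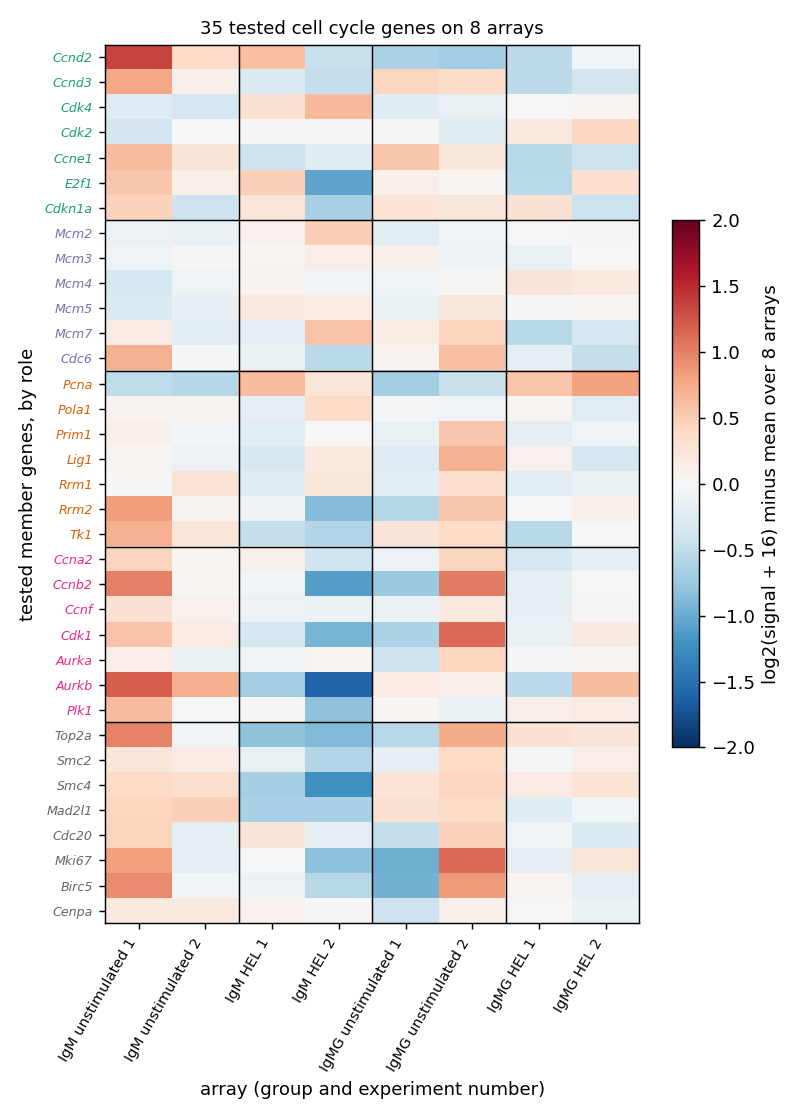
Log2(signal + 16) of the 35 tested members on the 8 arrays, minus each gene's mean over the arrays; rows are ordered by role and columns by group and experiment. Most mitotic and chromosome genes are low on IgM HEL 2 and IgMG unstimulated 1 and high on IgM unstimulated 1 and IgMG unstimulated 2.

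The unstimulated IgMG arrays differed in several mitotic and chromosome genes. On IgMG unstimulated 2, the signal was 3.67 times that on IgMG unstimulated 1 for Ccnb2, 4.58 times for Cdk1, 4.38 times for Top2a, 5.11 times for Birc5 and 5.41 times for Mki67. The called members of these groups had ratios between these arrays of 0.953 for Aurkb, 1.12 for Smc4 and 1.06 for Mad2l1. Between the stimulated arrays, Aurkb differed too, with 29.2 and 8.1 in IgM cells and 35 and 95.4 in IgMG cells. Over all tested probe sets same-numbered arrays did not deviate together, but most mitotic and chromosome genes did so in IgM cells. There, 7 of 7 mitotic and 7 of 8 chromosome genes were higher on unstimulated 1 than 2. With HEL, 6 of 7 and 8 of 8 were higher on IgM HEL 1 than 2. In IgMG cells 5 of 7 and 8 of 8 were higher on unstimulated 2 than 1, and 0 of 7 and 4 of 8 on HEL 1 than 2. The counts that follow match arrays by experiment number only to describe them, since such arrays are not known to be pairs. In IgM cells both experiments gave a lower signal with HEL for 8 of 8 chromosome genes and 6 of 7 mitotic genes. In IgMG cells the experiments went in opposite directions for 6 of 8 and 4 of 7, with chromosome genes higher on the HEL array in 6 of 8 in experiment 1 and in 0 of 8 in experiment 2. Over all members the experiments were opposite for 5 of 35 in IgM and 17 of 35 in IgMG cells. The genes in these counts share the same few arrays, and the share over all probe sets was not counted.

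Markers of other blood cells also varied between these arrays, but not all in the same order as these genes. The B cell identity of the samples was checked first: 9 of 10 listed B cell markers had a probe set, their summed signal lay between 21912 and 27626, Cd79a between 5637 and 7758, and the follicular marker Fcer2a between 1099 and 3434. Of the 9, 4 changed with HEL in IgM cells: Cd79b (-1.01), Cd22 (-0.98) and Pax5 (-1.02) fell and Blk rose (0.69), with adjusted p = 0.00280, 0.00392, 0.0186 and 0.0156 (limma). In IgMG cells Cd79b fell (-0.63) and Blk rose (0.69), with adjusted p = 0.0404 and 0.0297. Erythroid markers (6 of 10 with a probe set, haemoglobin and Alas2 included) summed to 15208 and 17699 on unstimulated IgM arrays, 14512 and 16997 with HEL, 13180 and 19822 on unstimulated IgMG arrays and 17406 and 21361 with HEL. Myeloid markers (15 of 16) summed to 3634 and 5827, 1348 and 5289, 2321 and 20051, and 6538 and 7355 in the same groups, with the highest sum on IgMG unstimulated 2 and the lowest on IgM HEL 2. NK markers (7 of 10) summed to 339 to 457 in IgM cells, 525 and 3633 in unstimulated and 824 and 999 in stimulated IgMG cells. T cell markers (10 of 12) summed to 1543 to 1699 and 1002 to 1175 in IgM cells and 1247 to 1442 and 911 to 1055 in IgMG cells, most of it Cd2, and the defining Cd3 genes stayed at or below 16.2. Germinal centre and plasma cell markers (8 of 10) summed to 1187 to 1495 without and 4138 to 6946 with HEL. Irf4 made up most of the sums with HEL, at 2893.7 to 6090.6, but not of those without, at 372.5 to 489.1. Mybl1 and Fas stayed at or below 17.9. No marker was at 0; the lowest signal was 0.8.

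The array with the highest signal was IgMG unstimulated 2 or IgM unstimulated 1 for 7 of 7 mitotic, 7 of 8 chromosome, 5 of 6 erythroid, 9 of 15 myeloid and 7 of 7 NK genes. The same held for 5 of 7 G1 entry, 2 of 6 licensing and 5 of 7 DNA synthesis genes. It held for 2 of 9 B cell, 4 of 10 T cell and 1 of 8 germinal centre and plasma cell markers. The array with the lowest signal was IgM HEL 2 or IgMG unstimulated 1 for 6 of 7 mitotic, 8 of 8 chromosome, 6 of 6 erythroid, 9 of 15 myeloid and 1 of 7 NK genes. This held for 2 of 7 G1 entry, 2 of 6 licensing and 3 of 7 DNA synthesis genes. For B cell, T cell, and germinal centre and plasma cell markers the counts were 4 of 9, 6 of 10 and 4 of 8. The arrays in these counts were picked after the values were seen, and the share over all probe sets was not counted. Between the unstimulated IgMG arrays the ratio was 4.60 for the erythroid factor gene Klf1 and 14.4 for the neutrophil gene S100a8, beside 1.35 for Hba-a1. The ratio of the 5' to the 3' Gapdh probe sets, a measure of RNA integrity, was 0.373 and 0.259 on IgM unstimulated 1 and 2. It was 0.328 and 0.755 on IgM HEL 1 and 2, and 0.237 and 0.395 on IgMG unstimulated 1 and 2. The IgMG HEL arrays had the lowest ratios, 0.221 and 0.140, below both IgM HEL arrays. The part of these cell types and of RNA quality in the falls of Aurkb, Smc4 and Mad2l1, and in the values of the other mitotic and chromosome genes, was not tested. Without both IgM HEL 2 and IgMG unstimulated 2, Smc4 and Mad2l1 still fell in IgM cells by 1.05 and 1.10 on the log2 scale (adjusted p = 0.00915 and 0.0173, limma) and Pcna still rose by 1.15 (adjusted p = 0.00794). Aurkb, Tk1 and Cdk4 had changes of -1.65, -0.96 and 0.62 and did not pass (adjusted p = 0.0508, 0.0858 and 0.0785).

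**Figure D4:**
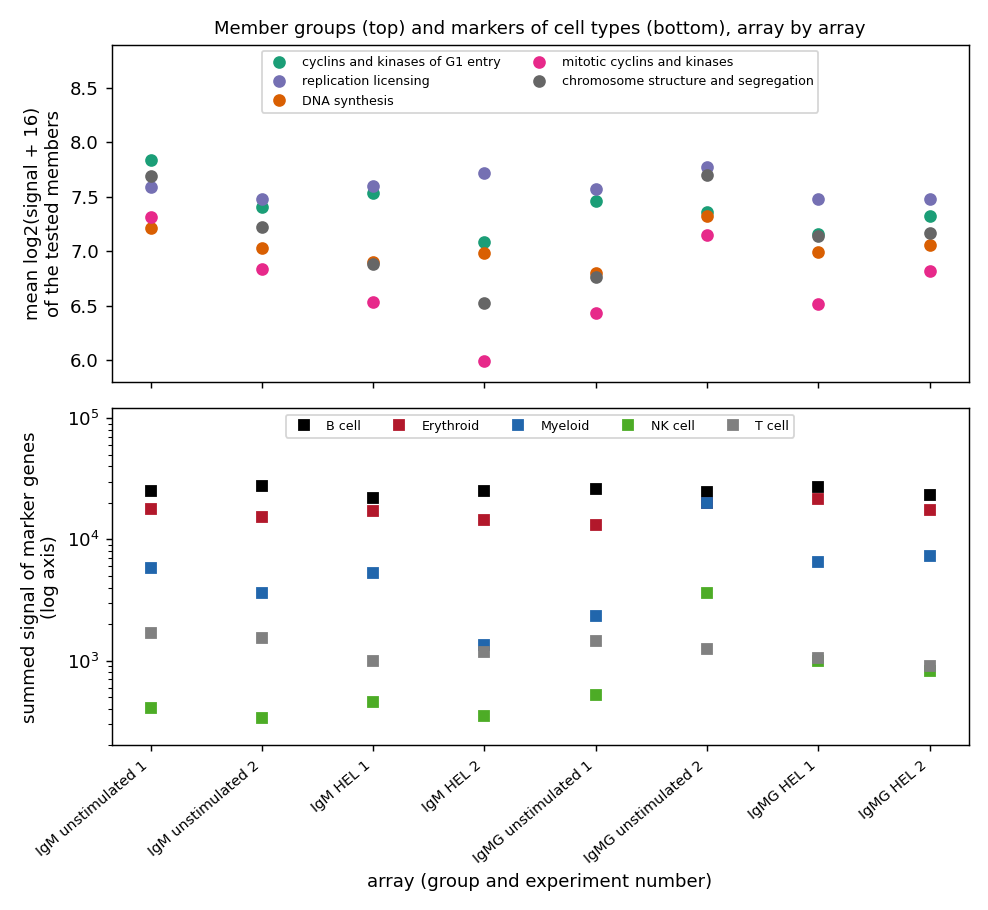
Top, mean log2(signal + 16) of the tested members of each role on each array; bottom, summed linear signal of the markers of 5 cell types on a log axis. The mitotic mean ran from 5.99 on IgM HEL 2 to 7.31 on IgM unstimulated 1, and the myeloid sum from 1348 on IgM HEL 2 to 20051 on IgMG unstimulated 2.

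The other genes of the cell cycle, a further list of 118, gave 82 tested genes. In IgM cells 3 rose and 9 fell (14.6%, beside 14.0% of all probe sets), and in IgMG cells 1 rose and 4 fell (6.1%, beside 5.39%), so both shares are near the background. The median log2 change of these genes was -0.24 in IgM cells and -0.19 in IgMG cells. Some genes whose products work with Pcna, chosen here after their values were seen, fell. Rfc1, the large subunit of the clamp loader that places Pcna on DNA, changed by -1.19 ± 0.22 (SE) in IgM cells and -1.04 ± 0.22 in IgMG cells (adjusted p = 0.00887 and 0.0293, limma). Pold1, the catalytic subunit of a polymerase that Pcna clamps, changed by -0.85 ± 0.22 and -1.22 ± 0.22 (adjusted p = 0.0370 and 0.0185), and Rpa1, which coats single-stranded DNA, by -1.01 ± 0.19 and -1.04 ± 0.19 (adjusted p = 0.0101 and 0.0185). Others did not pass within either receptor. Rfc2 of the same clamp loader had -0.51 ± 0.19 and -0.60 ± 0.19 (adjusted p = 0.103 and 0.0963, limma), and the ligase gene Lig1 had -0.03 and -0.35. In the mean response Rfc2 passed, with -0.56 ± 0.13 (adjusted p = 0.0175, limma), and Lig1 did not, with -0.19 ± 0.24. Of the 30 other replication genes tested, 1 rose and 5 fell in IgM cells and 0 rose and 3 fell in IgMG cells (20% and 10%, beside 14.0% and 5.39% of all probe sets). In IgM cells the riser was the licensing factor gene Cdt1 (0.85 ± 0.15, adjusted p = 0.00729, limma). Among those that fell were the origin recognition gene Orc5 (-1.58 ± 0.21, adjusted p = 0.00222) and the nucleoside kinase gene Dck (-1.37 ± 0.32, adjusted p = 0.0231). A second Dck probe set did not pass in IgM cells, with -0.62 (adjusted p = 0.203, limma).

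Of 15 inhibitors and pocket protein genes tested, 2 rose and 3 fell in IgM cells and 1 rose and 1 fell in IgMG cells (33.3% and 13.3%, beside 14.0% and 5.39% of all probe sets). Cdkn2d, the p19 inhibitor of Cdk4 and Cdk6, fell with either receptor. Its signals were 550.8 and 295.2 against 131.6 and 162.8 in IgM cells and 375.4 and 470.3 against 157 and 139.1 in IgMG cells. The log2 changes were -1.37 ± 0.28 and -1.41 ± 0.28 (SE, adjusted p = 0.0134 and 0.0248, limma). Btg1, an antiproliferative gene, rose by 0.58 ± 0.14 and 0.64 ± 0.14 (adjusted p = 0.0240 and 0.0305). Ccng2, an atypical cyclin of quiescent cells, and Gadd45a, a stress gene that restrains the cycle, fell in IgM cells by 1.02 and 1.32 on the log2 scale (adjusted p = 0.00583 and 0.0271), and Gadd45b rose by 1.31 (adjusted p = 0.0156). In IgMG cells Ccng2, Gadd45a and Gadd45b had -0.22, -0.43 and 0.55 and did not pass. A second Gadd45b probe set rose by 0.85 in IgM cells (adjusted p = 0.03, limma) and had -0.03 in IgMG cells. The brightest probe sets of Gadd45b and Dck, given first, can detect several transcripts. The mean response over both receptors also called the pocket protein genes Rbl1 (-0.75 ± 0.17) and Rbl2 (-0.82 ± 0.21) lower. Of 18 other G1 and G2 regulators tested, none passed within a receptor type in limma, where 5 in IgM and 2 in IgMG cells had an unadjusted p under 0.05, beside 28.6% and 22.3% of all probe sets. Of 19 other mitosis genes, only Smc3 of the cohesin ring passed in IgM cells, with a fall of 0.87 (adjusted p = 0.0101, limma). This is 5.26% of the list, below the 14.0% of all probe sets, and none of the 19 passed in IgMG cells.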

How the data were processed

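Each of 8 RNA pools was hybridised to 1 single-colour array. The values deposited by the authors are linear intensities, 1 for each probe set, made with MAS5 per the submitters' processing notes. Median deposited intensity per array lay between 40.7 and 47.75, and the number of arrays limits the precision. Such scaling gives every array a like total, and dim probe sets are measured with more noise.

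Groups and experiment numbers came from the sample titles. From 12488 probe sets, 66 controls were left out, and log2(signal + 16), which understates changes of dim genes, was tested for the brightest 60% by mean over the arrays. Probe sets were named through the platform annotation, in which 10833 probe sets had 1 symbol and 396 several; those with several were not named. Two-sided tests used limma 3.58.1 in R 4.3.3 with 1 coefficient per group, eBayes with a variance trend (4 residual and 4.87 prior degrees of freedom) and Benjamini-Hochberg adjustment at 0.05 over all tested probe sets. The design fixed which genes are named: members past the threshold and a fixed set of key members with full values, further members by ranges. Scripts were tested on simulated data. Members, role groups, the further cell cycle list and markers were chosen with earlier results of these data known.

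Over all tested probe sets, same-numbered arrays did not deviate together (correlation of deviations between -0.161 and 0.0163), so the numbers were not used as pairs. Alternatives covered the offset, scaling, filter, trend, arrays fitted, probe set averaging, a replicate block, a covariate and each array left out. Promoter windows were credited to RefSeq, build GRCm38.p6. Figures used matplotlib 3.10.9 in Python 3.11.15.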

Additional observations from a re-analysis of the deposited data

How the results depend on the processing

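Over 20 alternative settings, the count of called members was compared with that of the report. In IgM cells it went from 8 to 3 with Gapdh 5'/3' as a covariate and to 3 without both arrays that stand apart (IgM HEL 2 and IgMG unstimulated 2), an alternative chosen after seeing the data, and it ranged from 2 to 10 with 1 array left out. In IgMG cells it went from 2 to 1 with arrays centred on their median, no filter on dim probe sets, no variance trend, only the arrays of the groups compared, the replicate block or the covariate, and it ranged from 0 to 2 with 1 array left out. The count for the mean response ranged from 6 to 9 with 1 array left out, and the counts for the difference of the responses and for IgMG against IgM, with and without HEL, were 0 in every setting. With the replicate block, 6 members were called in IgM cells, 1 in IgMG cells and 8 in the mean response; with the experiment numbers crossed, also chosen after seeing the data, these were 7, 1 and 8. The replicate block ended the IgM calls of Ccnd3 and Ccne1 (adjusted p = 0.0555 and 0.0580, limma) and the IgMG call of Ccne1 (0.0722). Smc4 and Mad2l1 kept their call in IgM cells in all 20 settings, and Ccnd3, Ccne1, Mad2l1, Pcna, Smc4 and Tk1 kept theirs in the mean response in all 19 that gave a value. Averaging probe sets turned the IgMG response of Cdk4 to -0.053 and ended its call in IgM cells (0.56, adjusted p = 0.0851, limma). Without both arrays that stand apart the mean response of Rrm2 turned to 0.028. With 1 array left out, the difference of the responses ranged from -0.10 to 1.66 for Cdk1, and the unstimulated difference of Rrm2 from -1.03 to 0.087. Sign changes of uncalled values within 1 standard error of 0 were not counted. Where a group was left with 1 array, that array was assumed to vary like the other groups. The cause of these changes was not tested. The low signals of Aurkb and Top2a with HEL in IgM cells limit how well the size of their change is known.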
